A study of Mus musculus with 11 samples.

Results

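The step from the ovulated mouse egg to the 2-cell embryo was followed where the egg had been made without Daxx. The comparison uses 5 of the 11 libraries of the series, chosen by their labels alone: 3 libraries of knockout oocytes and 2 libraries of the embryos that such oocytes gave. The eggs, at the second meiotic metaphase (MII), came from females older than 8 weeks, homozygous for a floxed Daxx allele (Daxxtm2Led) and carrying Tg(Zp3-cre)93Knw, collected 20 hours after hCG on a mixed C57BL/6J and 129/Sv background. Zp3-cre is a Cre transgene under the promoter of a zona pellucida gene and is active in growing oocytes, so the females are knockout in their oocytes and not in the whole body. The embryos (m-z+) were obtained by fertilising knockout eggs in vitro with sperm of JF1 males, selected for 2 pronuclei and grown in KSOM medium, then lysed as late 2-cell embryos 33 hours later, and carried an intact paternal Daxx allele from the sperm. A library stands for 50 eggs or embryos, pooled over 2 to 3 superovulated mothers. Controls for the same step were 3 oocyte and 3 embryo libraries from females with the floxed alleles and no Cre, fertilised in the same way. All groups carried the floxed alleles, and the embryo libraries of the knockout are the replicates numbered 2 and 3.

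Daxx is a chaperone that, with Atrx, places the histone variant H3.3 into silent chromatin. A ripe oocyte does not transcribe; it lives on stored maternal mRNA, which is translated, deadenylated and destroyed after meiosis resumes and fertilisation follows. In the mouse the embryonic genome is switched on mainly at the 2-cell stage, with a burst of genes and retroelements that are read for a short time only, followed by genes for RNA processing and ribosome production.

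Total counts were 38181975, 37619713 and 37780943 in the oocyte libraries and 25308468 and 20708472 in the embryo libraries. Reads were found for 17503 to 17575 genes per oocyte library and for 19441 to 19872 per embryo library, and genes at 1 CPM (the share of a library's reads, scaled to 1e+06) or more numbered 12168 to 12232 against 13613 to 13860. The targeted gene, Daxx (chromosome 17, 33909404 to 33915590, GRCm38), stood at 8.20, 8.40 and 7.83 CPM in the knockout oocytes, where control oocytes had 97.2, 94.2 and 86.2 CPM. The counts are per gene, so reads of the deleted part cannot be separated from the rest. All 9 of the defining oocyte markers held many reads in oocytes, and their sum was 1.28 to 1.32% of reads in oocytes and 0.199 to 0.213% in embryos. Of the 9 defining 2-cell markers, 8 rose, and Y-linked genes, absent from any egg, appeared with the embryos (Eif2s3y 0 CPM in every oocyte library, then 6.44 and 8.89 CPM). Markers of granulosa and cumulus cells summed to 0.0306 to 0.0375% of reads in oocytes and 0.00966 to 0.0119% in embryos. Of 18 members, 11 could be tested, 3 rose and 4 fell. Foxl2, Inha and Ptx3 had at most 2 reads in any of the 5 libraries. Sperm and spermatid markers summed to 0.0216 to 0.0224% and then 0.0257 to 0.0286%, with 8 of 15 tested, 4 higher and 3 lower. Prm1, Tnp1 and Tnp2 stayed near or under 1 CPM in every library. For blood and stroma the sums were 0.00594 to 0.00621% and 0.00327 to 0.00455%, with 4 of 11 tested, 2 higher and 2 lower. Hbb-bs, Hba-a2 and Col3a1 were at 0 in all 5 libraries, and they were the only 3 of the 11 without a read there. The members named from these 3 lists were picked after their values were seen. In each list, other members held most of the summed reads. The part of these other cell types in the results below was not tested. One difference between the embryo libraries is large: Lars2, a nuclear gene for the mitochondrial leucyl-tRNA synthetase, took 1.81% of the reads in replicate 2 and 0.552% in replicate 3, against 0.142 to 0.183% in the oocytes. In control embryos its share also varied, from 0.482 to 1.85%.

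Most of the measured transcriptome moved. Of 16592 genes tested, 7044 were higher in embryos (42.5% of those tested) and 6257 lower (37.7%), together 13301 (80.2%). Changes of at least 2-fold were counted for 5501 genes upward (33.2%) and 4384 downward (26.4%). The scale of the rises was wider than that of the falls, with 2130 genes higher by at least 16-fold and 159 lower by as much. The median log2 change over all tested genes was 0.09, and the counts of each gene group described here stand against the 42.5% higher and 37.7% lower of all tested genes. On simulated counts of 16592 genes with 200 changed, the same test made 134 calls, of which 11.2% were false, above the nominal 5%, and it recovered 34.3% of the genes changed 1.5-fold and 89.4% of those changed 4-fold. The false share and the recovery were obtained with 200 changed genes only. For a step in which 80.2% of genes are called, as here, they were not tested. Among called genes, 28 had overlapping libraries, and in all others every embryo library lay on one side of every oocyte library. The libraries were thus apart in 99.8% of called genes, and in 86.9% of all tested genes. CPM is a share of a library, so for a bulk pool fewer cells of a type and less RNA per cell cannot be told apart, nor can a fall in molecules be told from a rise of other RNA.

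**Figure D1:**
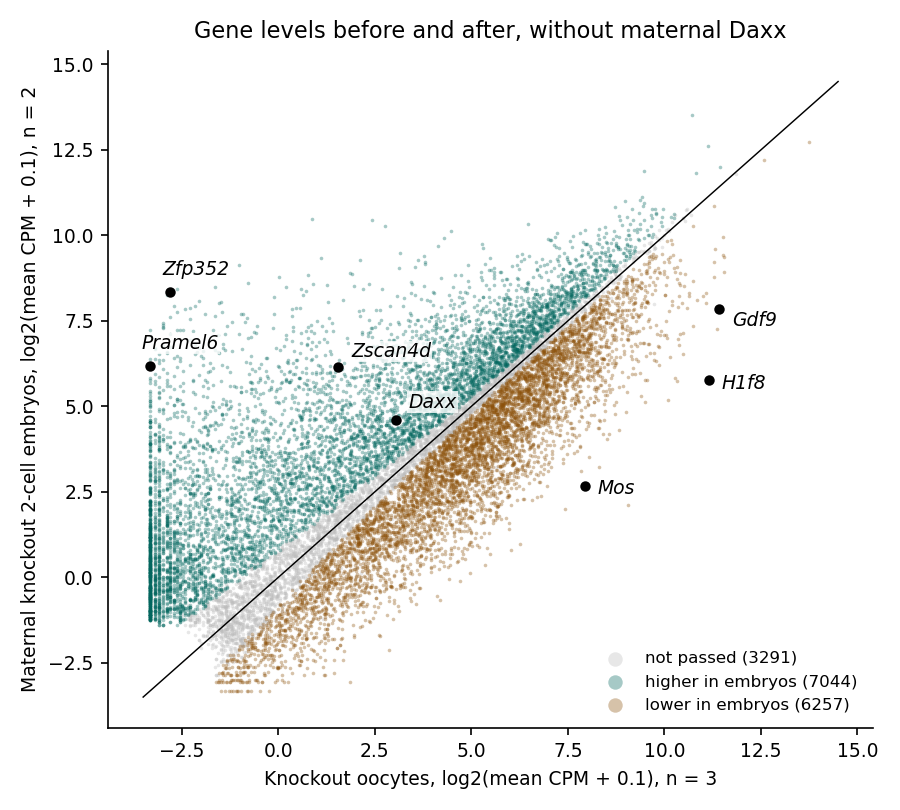
Mean level of each of the tested genes in knockout oocytes (x axis, 3 libraries) and in maternal knockout 2-cell embryos (y axis, 2 libraries), both as log2(CPM + 0.1), with the line of equal levels. The 7044 genes called higher fill the left of the plot down to genes with no oocyte read, such as Pramel6, while Mos, H1f8 and Gdf9 lie far below the line among the 6257 called lower.

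To see how the share of reads moved between genes of the egg and genes of the embryo, genes were ranked in the control libraries, which the comparison does not use. The 1000 genes with the most reads in control oocytes held 53.5 to 54.3% of the reads of the knockout oocytes and 41.0 to 42.0% of those of the embryos. Of these, 646 fell, 231 rose and 123 did not pass the test. The 1000 genes with the most reads in control embryos went the other way, from 38.4 to 39.5% of reads in knockout oocytes to 52.7 to 53.9% in embryos, with 688 higher and 186 lower.

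Genes of the egg coat and of secreted oocyte factors fell without exception. Of 11 tested members, 0 rose and 11 fell, with a median log2 change of -2.21. Gdf9, a growth factor by which the oocyte directs its follicle cells, was at 2776, 2761 and 2695 CPM in oocytes and 237 and 220.3 CPM in embryos. That is 8.33% of the oocyte mean (log2 -3.63 ± 0.08, edgeR adjusted p = 1.0e-09), and the 2 groups lay far apart. Bmp15, its partner on the X chromosome, kept 22.3% of its oocyte level (2879.7, 3019 and 3077 CPM, then 616 and 715 CPM; log2 -2.21 ± 0.11). Zp3, a zona protein and the gene whose promoter drives the Cre, went from 235, 243 and 213 CPM to 56.3 and 60.7 CPM. Zp1 (log2 -3.26 ± 0.08), Oosp2 (-3.92 ± 0.09) and Fgf8 (-3.66 ± 0.15) fell further than Zp3.

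The subcortical maternal complex, an assembly of oocyte proteins under the membrane that early cleavage needs, lost transcripts at all of its 8 members, with a median log2 change of -2.44 and a summed share of 2.24 to 2.28% of reads in oocytes and 0.697 to 0.948% in embryos. Padi6 showed the steepest fall of the group, from 2559, 2715 and 2639 CPM to 143 and 165 CPM (log2 -4.14 ± 0.11). Tle6 followed at -3.76 ± 0.09 and Ooep at -3.69 ± 0.18. Nlrp5, also called Mater, a scaffold of the complex, was at 1183, 1174 and 1183 CPM in oocytes and 228 and 270.4 CPM in embryos. Zbed3 was the mildest, at log2 -1.05 ± 0.15, and in oocytes it held more reads than any other gene, 13963, 13454 and 13833 CPM. The other oocyte Nlrp genes behaved alike: all 9 fell, with a median of -2.11, led by Nlrp4b (-3.66 ± 0.08) and Nlrp9b (-3.41 ± 0.08). Reads of these near copies may be shared between them.

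Meiotic regulators moved both ways. Among 27 tested members, 8 rose and 15 fell (median -0.43). Mos, the kinase that holds the egg in MII through the MAP kinase pathway, stood at 293, 237 and 207 CPM in oocytes and 6.64 and 5.94 CPM in embryos, 2.56% of the former (log2 -5.33 ± 0.17, adjusted p = 6.7e-09). Every oocyte library lay far above both embryo libraries. Bub1b, a spindle checkpoint kinase, fell from 1276, 1253 and 1190.2 CPM to 60.4 and 52.2 CPM (4.54% of its oocyte mean), and Pde3a, the phosphodiesterase that breaks down the cAMP of meiotic arrest, changed by -2.21 ± 0.07. Among the 8 that rose, Ccna2, which encodes cyclin A2, went from 242, 239 and 254 CPM to 829 and 902 CPM (log2 1.77 ± 0.08), Cdc20, the activator of the anaphase-promoting complex, from 57.4, 64.7 and 67.5 CPM to 170.4 and 198 CPM, and Sgo2a, a protector of centromeric cohesion, rose by 1.16 ± 0.10 on the log2 scale.

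Factors that store maternal mRNA fell in most cases, and those that destroy it had no common direction. Of 17 tested members, 5 rose and 10 fell, with a median of -1.83. Zar1, which keeps maternal mRNA in store, went from 669, 695 and 642 CPM to 33.5 and 44.7 CPM (log2 -4.14 ± 0.15). Patl2 (-3.92 ± 0.13), Dazl (-3.24 ± 0.09) and Igf2bp2 (-3.13 ± 0.09) fell too, whereas the helicase gene Ddx6 (1.59 ± 0.08) rose. For the decay machinery, of 26 tested members, 11 rose and 12 fell; its median, -0.04, changed sign in 4 of 14 alternatives, reaching 0.04. Pabpn1l, an oocyte poly(A)-binding protein that maternal mRNA clearance requires, was nearly gone itself, from 173, 179 and 167 CPM to 3.36 and 4.49 CPM. Tut4, which adds uridines to short poly(A) tails, rose from 0.314, 0.505 and 0.423 CPM to 49.2 and 36.3 CPM, and the m6A reader Ythdf2 rose by 2.01 ± 0.08. Oocyte transcription factors (9 tested, 6 lower, 2 higher, median -0.84) included Nobox, at 361, 374 and 331 CPM and then 26.7 and 31.4 CPM, and Taf4b, a TFIID subunit of the ovary, which rose by 3.60 ± 0.12.

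The 12 steepest falls were sought among called genes with a mean of at least 50 CPM in oocytes and fully separated libraries. Predicted genes, numbered clones, pseudogenes and small RNAs were left out. The 12 were Ftdc1, Pabpn1l, H1f8, Rnaset2a, Dera, Mos, Glrx, Rgs2, Psma7, Txnip, Obox2 and Elp2. Ftdc1 dropped from 527, 560.1 and 513 CPM to 3.32 and 5.12 CPM, or 0.791% of its oocyte mean. H1f8, the linker histone made by oocytes, fell from 2324, 2390.2 and 2188 CPM to 48.8 and 59.4 CPM (log2 -5.45 ± 0.13, adjusted p = 1.4e-09). Rgs2, a brake on G protein signalling, went from 1049, 1107 and 1119 CPM to 30.5 and 42.4 CPM, and Txnip, a regulator of glucose uptake and redox state, from 1308, 1296 and 1264 CPM to 45.1 and 61.3 CPM. By the rule of separated libraries, no embryo library could reach an oocyte library in these 12.

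**Figure D2:**
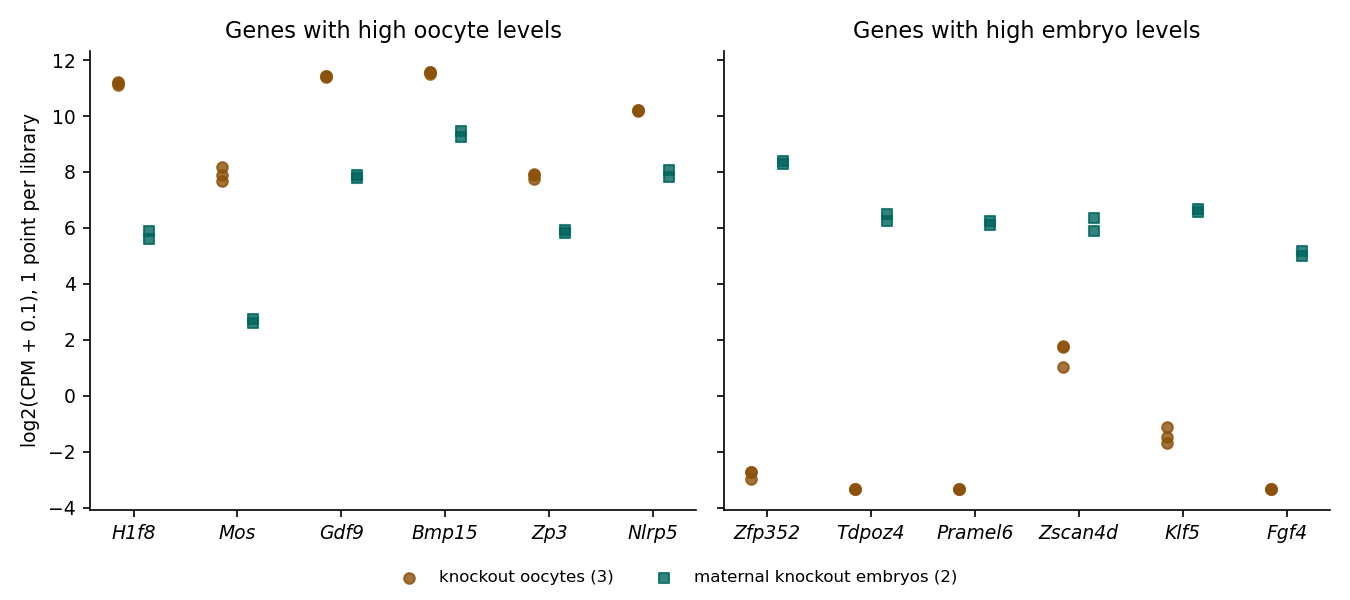
Level of 12 genes in each of the 5 libraries, as log2(CPM + 0.1) on the y axis, with oocyte libraries as circles and embryo libraries as squares. For each gene the groups lie apart: the 6 genes on the left are lower in embryos, and the 6 on the right are higher, with no oocyte read for Tdpoz4, Pramel6 and Fgf4.

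A set of genes went from no read at all to a firm level. In 47 genes no read was counted in any of the 3 knockout oocyte libraries (113582631 reads together) while both embryo libraries had at least 10 CPM. A count of 0 allows up to 3 reads over the group, which sets the lower bounds below. No gene did the reverse. Zfp599, a zinc finger gene, reached 154 and 148 CPM, at least 5717-fold above the oocytes. Tdpoz4, of a family with TRAF and POZ domains read at the 2-cell stage, reached 76.0 and 90.3 CPM (at least 3148-fold), and Pramel6, of the preferentially expressed antigen in melanoma-like family, 68.7 and 76.6 CPM (at least 2751-fold). Signalling genes were also among the 47: Fgf4, the growth factor by which early lineages are sorted, at 36.5 and 31.8 CPM (at least 1293-fold), Vegfa at 33.2 and 30.3 CPM, and Amhr2, a receptor listed above with granulosa markers, at 48.9 and 38.2 CPM. In control oocytes 27 of the 47 had no read either, and 42 had at least 10 CPM in every control embryo library.

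Genes known for a short burst at the 2-cell stage rose in large numbers. Of 46 in the table, 45 were tested, 36 rose and 5 fell, with a median log2 change of 7.21, also when the 9 genes without oocyte reads were put at their lower bound. Zfp352, a zinc finger gene, had 0.0262, 0.0532 and 0.0529 CPM in oocytes and 313 and 337 CPM in embryos (log2 12.68 ± 0.16). Zscan4d, whose protein family acts at telomeres of 2-cell embryos, rose from 1.94, 3.32 and 3.28 CPM to 82.1 and 58.7 CPM (log2 4.57 ± 0.23), so it was not silent in the eggs. Tcstv3 rose from 1.23, 0.930 and 0.556 CPM to 70.8 and 72.2 CPM. Its neighbour in name, Tcstv1, did not pass the test (adjusted p = 0.053): its oocyte libraries had 4.79, 0 and 0.106 CPM, the first far above the others, and its embryos 57.1 and 50.9 CPM. Members that fell include E330021D16Rik (1310.3, 1345 and 1415 CPM, then 131 and 145 CPM) and Arg2, the mitochondrial arginase (log2 -1.81 ± 0.11). Many of these families, Zscan4, Tdpoz, Usp17l and Pramel included, consist of near copies whose reads the counting may have split.

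Promoter windows of 300 bases (250 before and 50 after the annotated start, RefSeq, GRCm38.p6) were searched on both strands for TATAAA, the core of a TATA box, and for a form of the site known for Dux, the homeobox factor that switches on 2-cell genes. The Dux motif is the longer run of capitals in the first 2 sequences, there on the opposite strand, with the fifth and the sixth letter of the run free, and neither motif can contain the other. Windows were at hand for 31 of the 46 transient 2-cell genes, and the other genes were not searched. The Dux motif was present in 5 of their 32 windows (15.6%). It was present in 0.207% of all 32851 windows of the table and in 0.136% of those of tested genes. TATAAA was present in 28.1%, 13.6% and 8.46% of the same sets. The 5 windows with the Dux motif belong to Abcb5, Zscan4b, Zscan4c, Zscan4d and Zscan4f, the last 4 of which are copies of one another. The 9 windows with TATAAA belong to the same 4 Zscan4 genes, to Usp17lb, Usp17lc and Usp17ld, and to Gm13043 and Pramel31. Many of these are copies too, so neither count is one of independent genes. The first 2 windows below show both motifs, in capitals, in the same order upstream of Zscan4c (chr7:11005495-11005794, plus strand) and Zscan4d (chr7:11166099-11166398, minus strand), identical at 281 of 289 aligned bases. The third shows Zfp352 (chr4:90218570-90218869, plus strand), the member with the most reads in embryos, in which neither motif was found. All are written 5′ to 3′ in the direction of transcription.
Zscan4c: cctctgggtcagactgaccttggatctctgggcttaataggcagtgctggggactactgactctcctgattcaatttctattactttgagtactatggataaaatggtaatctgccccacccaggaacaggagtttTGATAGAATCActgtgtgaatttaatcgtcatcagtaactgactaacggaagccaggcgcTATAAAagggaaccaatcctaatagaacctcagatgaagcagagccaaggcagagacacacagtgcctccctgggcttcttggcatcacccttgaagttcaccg
Zscan4d: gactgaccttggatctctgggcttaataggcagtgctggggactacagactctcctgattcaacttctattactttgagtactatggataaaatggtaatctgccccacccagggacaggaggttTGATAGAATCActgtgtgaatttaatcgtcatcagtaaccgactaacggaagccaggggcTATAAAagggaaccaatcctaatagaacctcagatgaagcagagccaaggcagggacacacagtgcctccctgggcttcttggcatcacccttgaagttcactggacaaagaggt
Zfp352: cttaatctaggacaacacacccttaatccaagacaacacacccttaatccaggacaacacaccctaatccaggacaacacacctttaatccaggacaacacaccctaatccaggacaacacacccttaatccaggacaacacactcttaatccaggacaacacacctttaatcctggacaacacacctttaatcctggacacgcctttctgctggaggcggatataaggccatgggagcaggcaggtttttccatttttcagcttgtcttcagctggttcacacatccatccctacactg
In Zscan4d TATAAA begins 65 bases and the Dux motif 125 bases before the annotated start, and in Zscan4c 54 and 114 bases. Zscan4c itself rose from 0.445, 0.930 and 0.688 CPM to 21.6 and 17.5 CPM, about as many log2 units as Zscan4d (4.77 ± 0.26 against 4.57). Zscan4f rose from 0.131, 0.213 and 0.318 CPM to 24.7 and 21.7 CPM and Zscan4b from 0, 0.106 and 0 CPM to 5.69 and 6.13 CPM. Abcb5, a membrane transporter gene, rose by only 1.39 ± 0.19. Of the 47 genes without oocyte reads, 36 had a window to search, with 41 windows together. Of these windows, 14.6% held TATAAA and 0 the Dux motif.

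Homeobox genes of this stage moved both ways. Obox3 rose from 0.210, 0.266 and 0.265 CPM to 216 and 305 CPM (log2 9.98 ± 0.23) and Obox6 from 0.419, 0.239 and 0.132 CPM to 222 and 209 CPM, whereas Obox2 fell from 467, 447 and 439.6 CPM to 16.6 and 23.1 CPM, as did Obox1 (log2 -2.71 ± 0.12) and Obox7 (-2.79 ± 0.11). Crxos, another homeobox gene, had 1 read in the oocyte libraries together and 98.0 and 106 CPM in embryos, a ratio of 11549 (95% exact counting interval 2072 to 456260). In total 3 of 8 tested members rose and 4 fell. These genes lie in a cluster of copies, so their separate values are uncertain. Of the early heat shock genes, 14 of 22 rose and 7 fell (median 0.51). Hspa1a, an inducible Hsp70 gene and an early mark of embryonic transcription, went from 2.65, 2.84 and 1.32 CPM to 24.6 and 25.8 CPM, and the constitutive Hspa8 from 143, 186 and 173 CPM to 790.0 and 651 CPM. Hsp90aa1 moved the other way, from 629, 654 and 603 CPM to 133 and 161 CPM.

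Y-linked genes and Xist were counted at low levels in embryos. All 9 tested Y-linked genes and Xist rose, and 5 of the 9 had no read in the oocyte libraries. Uty, a Y-linked demethylase-family gene, was at 0.0262, 0.0532 and 0.0529 CPM in oocytes and 11.8 and 22.1 CPM in embryos, and Usp9y at 0.105, 0 and 0.0529 CPM and 21.9 and 30.3 CPM. Xist, the RNA that silences an X chromosome, was at 3.56 and 2.17 CPM in embryos. The 626 tested genes of the X chromosome had a median log2 change of 0.39, against 0.08 for the 15941 autosomal genes, and in the control step the medians were 0.37 and 0.06. No test was made of the X chromosome as a whole.

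Small nucleolar RNAs guide the modification of ribosomal RNA. All 101 small nucleolar RNAs tested, of 107 in the table, were higher in embryos, with a median log2 change of 3.06, and their summed share was 0.0834 to 0.0987% of reads in oocytes and 0.623 to 0.630% in embryos. Snord47 went from 1.83, 2.10 and 1.88 CPM to 56.5 and 35.1 CPM. These RNAs lie in introns of host genes, and whether the counts are of the mature RNA or of unspliced host transcripts cannot be read from them. Among ribosome assembly and nucleolar factors, 40 of 62 rose and 13 fell (median 1.02). Nop2, an rRNA methyltransferase gene, rose from 4.92, 4.65 and 3.89 CPM to 222 and 225 CPM (log2 5.59 ± 0.11, adjusted p = 5.2e-10). Taf1d, part of the initiation factor of RNA polymerase I, rose from 43.1, 48.9 and 45.3 CPM to 518 and 505 CPM, and Polr1c, a subunit of polymerases I and III, from 3.72, 4.73 and 4.34 CPM to 58.6 and 59.2 CPM. Noc4l, needed for the small subunit, fell (log2 -2.70 ± 0.10).

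Cytosolic ribosomal protein genes rose in 61 of 82 cases and fell in 11, with a median log2 change of 1.22 and a summed share of 0.129 to 0.143% and then 0.339 to 0.366% of reads. Rps12 rose from 40.7, 62.9 and 55.7 CPM to 588 and 389.6 CPM and Rps3 from 78.2, 83.1 and 75.3 CPM to 548 and 860.1 CPM; for both, the embryo libraries differed by over 100 CPM from each other and still stood clear of the oocytes. Rpl32 was among those that fell, from 113, 124 and 114 CPM to 37.5 and 51.6 CPM. Many of these genes have processed pseudogenes that can take their reads. Translation initiation factors had no common direction (17 of 36 higher, 14 lower, median 0.13). Eif4g1, the scaffold of cap binding, rose from 139.7, 155 and 147 CPM to 776 and 831 CPM. The X-linked Eif1ax fell from 207, 227 and 201 CPM to 48.2 and 56.3 CPM as its autosomal relative Eif1a rose from 0.733, 0.771 and 0.582 CPM to 75.7 and 54.0 CPM. Cytosolic aminoacyl-tRNA synthetases fell in 12 of 18 cases and rose in 4.

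Replication-dependent core histones, whose mRNA is made in S phase and ends without a poly(A) tail, rose in 49 of 54 tested genes and fell in 1, with a median of 2.15. H3c11 rose from 0.969, 0.532 and 0.371 CPM to 27.1 and 54.3 CPM, with the second embryo library at about 2 times the first (log2 5.98 ± 0.43). The exception was H2bc1, a histone of germ cells, at 154, 142 and 122 CPM and then 108 and 83.5 CPM (log2 -0.59 ± 0.12, adjusted p = 0.0014), a call lost when all 11 libraries were fitted together (adjusted p = 0.06). The 51 promoter windows found cover 50 of these genes. Of these windows, 54.9% held TATAAA, against the 8.46% of windows of all tested genes, and none held the Dux motif. The window of H3c11 (chr13:21783348-21783647, minus strand, RefSeq, GRCm38.p6) is shown with its TATAAA in capitals. There TATAAA begins further before the annotated start than in Zscan4c and Zscan4d. The search took no account of position, and whether any match acts as a TATA box was not tested.
H3c11: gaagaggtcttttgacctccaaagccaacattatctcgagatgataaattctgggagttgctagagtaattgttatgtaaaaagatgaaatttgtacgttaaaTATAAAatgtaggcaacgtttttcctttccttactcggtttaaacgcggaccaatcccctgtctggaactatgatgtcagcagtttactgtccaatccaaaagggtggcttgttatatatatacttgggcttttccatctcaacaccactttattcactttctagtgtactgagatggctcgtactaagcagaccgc
Of 9 linker histones, 3 rose and 4 fell. While H1f8 fell, H1f5 rose from 0.471, 0.532 and 0.768 CPM to 27.3 and 48.5 CPM and H1f1 from 873, 906 and 816 CPM to 1885 and 1615 CPM.

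Nuclear import receptors rose in 12 of 17 cases and fell in 4 (median 1.05). Kpna1, an importin alpha, was close to absent in oocytes, at 0.655, 0.239 and 0.556 CPM, and reached 358 and 426 CPM in embryos (log2 9.61 ± 0.22). Tnpo3, a transportin that carries splicing factors, rose from 3.77, 4.07 and 3.10 CPM to 456 and 480.1 CPM, and Kpna4 by 6.10 ± 0.13. Kpna7, the importin alpha of the egg, fell from 421, 372 and 452 CPM to 76.2 and 86.0 CPM. Kpna2 fell as well (adjusted p = 0.038), but its libraries were uneven, at 85.0, 143 and 121 CPM in oocytes and 36.3 and 69.4 CPM in embryos, and the call was lost in 5 of 14 alternatives, among them those without either embryo library (adjusted p = 0.21 without replicate 2 and 0.061 without replicate 3). RNA polymerase II subunits and general factors rose in 27 of 51 cases and fell in 13, beside 42.5% and 37.7% of all tested genes. Cdk9, the kinase that releases paused polymerase, went from 7.78, 7.20 and 7.07 CPM to 175 and 162 CPM. Splicing and hnRNP genes were 26 higher and 16 lower of 50, with Hnrnpm rising from 12.7, 10.3 and 11.9 CPM to 159.8 and 183 CPM and Prpf6 falling from 207, 209 and 206 CPM to 35.8 and 34.9 CPM.

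Nuclear-encoded respiratory chain genes fell in 67 of 87 cases and rose in 14, with a median log2 change of -1.60. Mitochondrial ribosomal proteins fell in 56 of 78 and rose in 10 (median -1.30). Ndufa8, a complex I subunit, went from 39.6, 44.2 and 38.7 CPM to 1.07 and 1.30 CPM, 2.90% of its oocyte mean, and Mrps31 from 42.7, 47.6 and 42.9 CPM to 1.78 and 1.21 CPM. Atp5pb, an ATP synthase subunit, was one of the few that rose, from 23.9, 25.9 and 23.8 CPM to 61.4 and 62.5 CPM. Proteasome subunits fell in 22 of 34 cases and rose in 8 (median -1.14). Psma7, a subunit of the core ring, went from 229, 229 and 226 CPM to 8.02 and 9.13 CPM (log2 -4.78 ± 0.11), and Psme4, an activator cap that acts on acetylated histones, rose from 457, 424 and 484 CPM to 1536 and 1475 CPM. In glucose and citrate metabolism 23 of 45 genes fell and 16 rose. Ldha, a lactate dehydrogenase gene, had 3 reads in the oocyte libraries together and 20.2 and 15.7 CPM in embryos, a ratio of 689 (95% exact counting interval 235 to 3350). The glucose transporter Slc2a3 rose from 0.393, 0.266 and 0.0794 CPM to 33.4 and 29.2 CPM, and the succinate dehydrogenase gene Sdhd fell from 88.7, 96.3 and 98.2 CPM to 4.90 and 4.54 CPM.

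Genes that work with Daxx on H3.3 moved in both directions. Of 31 such genes 13 rose, 9 fell and 9 did not pass the test, with a median of 0.10, the same as that of all genes to within 0.01. Atrx, the remodeller that works with Daxx, was at 834, 798 and 886 CPM in oocytes and 644 and 673 CPM in embryos (log2 -0.40 ± 0.08, adjusted p = 0.0016). Hira, core of the other H3.3 chaperone complex, rose from 34.2, 34.3 and 35.2 CPM to 94.4 and 85.5 CPM (log2 1.33 ± 0.08), as did its partners Ubn1 (0.94 ± 0.07), Ubn2 (1.06 ± 0.07) and Cabin1 (0.75 ± 0.09). H3f3b, a gene of H3.3 itself, stood at 254, 281 and 292 CPM and 233 and 285 CPM (adjusted p = 0.3), and H3f3a fell slightly (-0.30 ± 0.10). Pml, the scaffold of the nuclear bodies that hold Daxx, was at 16.4, 14.1 and 14.1 CPM and 18.1 and 16.4 CPM (adjusted p = 0.25). Asf1a, which hands H3 to the chaperones, fell from 229, 231 and 222 CPM to 54.8 and 55.9 CPM, and Hjurp, the chaperone of centromeric CENP-A, rose from 163, 141 and 161 CPM to 689 and 659 CPM.

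Heterochromatin and histone methylation factors rose in 32 of 54 cases and fell in 14 (median 0.58). Among those that rose, Kdm5b, which removes H3K4 methylation, went from 6.31, 7.20 and 6.54 CPM to 1088 and 1386 CPM (log2 7.49 ± 0.15, adjusted p = 6.3e-10), and Kdm4c, which acts on H3K9, from 0.550, 0.452 and 0.635 CPM to 132 and 158 CPM. Of the HP1 genes, Cbx3 rose from 0.183, 0.159 and 0.132 CPM to 13.9 and 14.1 CPM and Cbx1 fell from 58.2, 62.6 and 57.4 CPM to 12.1 and 13.1 CPM. Setdb1, a writer of H3K9 methylation, fell (log2 -1.52 ± 0.07). In the DNA methylation group 16 of 29 rose and 10 fell. Dnmt1, the maintenance methyltransferase, fell from 2075, 2239 and 2217 CPM to 275 and 250.3 CPM, Tet3, the oxidase of the zygote, from 3148, 2642 and 2947 CPM to 908 and 1092 CPM, and Zfp57, which protects imprints, from 2888, 2942 and 3012 CPM to 617 and 747 CPM. Tet1 rose from 3.75, 6.67 and 5.72 CPM to 112 and 106 CPM. Imprinted genes had 24 of 49 higher and 17 lower, close to the shares over all tested genes (42.5% and 37.7%). Zrsr1, read from the paternal allele, rose from 1.10, 1.30 and 1.19 CPM to 83.2 and 70.5 CPM, and Mest, also paternally read in later embryos, fell from 161, 143 and 149 CPM to 52.9 and 42.0 CPM. Alleles were not separated in these counts.

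Zinc finger genes with numbered names moved in both directions, with 160 of 338 higher, 117 lower and a median of 0.25. Among them were Zfp622, from 0.183, 0.239 and 0.344 CPM to 228 and 308 CPM, and Zfp58, from 136, 131 and 131 CPM to 8.26 and 10.3 CPM. In the small RNA and transposon defence group 11 of 22 fell and 8 rose. The piRNA factor Tdrd12 went from 174, 177 and 182 CPM to 11.3 and 13.1 CPM, and Ago2, which cuts targets of small RNA, from 38.8, 35.9 and 40.0 CPM to 135 and 139 CPM.

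Regulators of the coming lineages were mostly on the rise, at 28 of 39, with 6 lower and a median of 1.29. Klf5, which both first lineages need, rose from 0.367, 0.213 and 0.265 CPM to 95.5 and 103 CPM, and Tead4, the trophectoderm factor, from 0.105, 0.186 and 0.185 CPM to 48.8 and 46.9 CPM (log2 8.16 ± 0.19). Gata3, another trophectoderm gene, fell from 20.6, 24.4 and 22.4 CPM to 3.08 and 2.51 CPM. Adhesion and junction genes fell in 14 of 24 cases and rose in 7. Of the connexins, Gja4, which joins oocyte and cumulus cells, kept 4.77% of its oocyte mean (log2 -4.44 ± 0.11), while Gja1, the connexin of the later embryo, went from 3 reads in the oocyte libraries together to 74.6 and 60.9 CPM, a ratio of 2593 (95% exact counting interval 886 to 12578). Cdh1, the cadherin of compaction, fell from 574, 557 and 527 CPM to 164 and 120.2 CPM.

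Cell survival genes moved both ways, with 16 of 34 higher and 11 lower, again beside 42.5% and 37.7% of all tested genes. Mcl1, which blocks apoptosis, rose from 8.64, 8.77 and 7.52 CPM to 294 and 305 CPM, and Bcl2l10, an oocyte member of the same family, fell from 1906, 2070.2 and 2159.7 CPM to 252 and 346 CPM. Casp8, an initiator caspase gene, fell from 26.5, 29.2 and 30.3 CPM to 1.19 and 1.55 CPM. All 29 tested genes of DNA damage response and p53 targets changed, 17 up and 12 down, where 80.2% of all tested genes did. Sesn2, a stress sensor that restrains mTORC1, rose from 3.25, 4.86 and 3.28 CPM to 363 and 367 CPM, and the Ku gene Xrcc6 fell from 71.8, 78.2 and 72.1 CPM to 10.3 and 7.05 CPM. In DNA replication 26 of 46 genes fell and 10 rose. Gmnn, whose product geminin blocks relicensing, rose from 33.9, 34.1 and 35.6 CPM to 188 and 181 CPM, and Orc5, of the origin recognition complex, fell from 558, 589 and 569 CPM to 95.9 and 99.5 CPM.

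**Figure D3:**
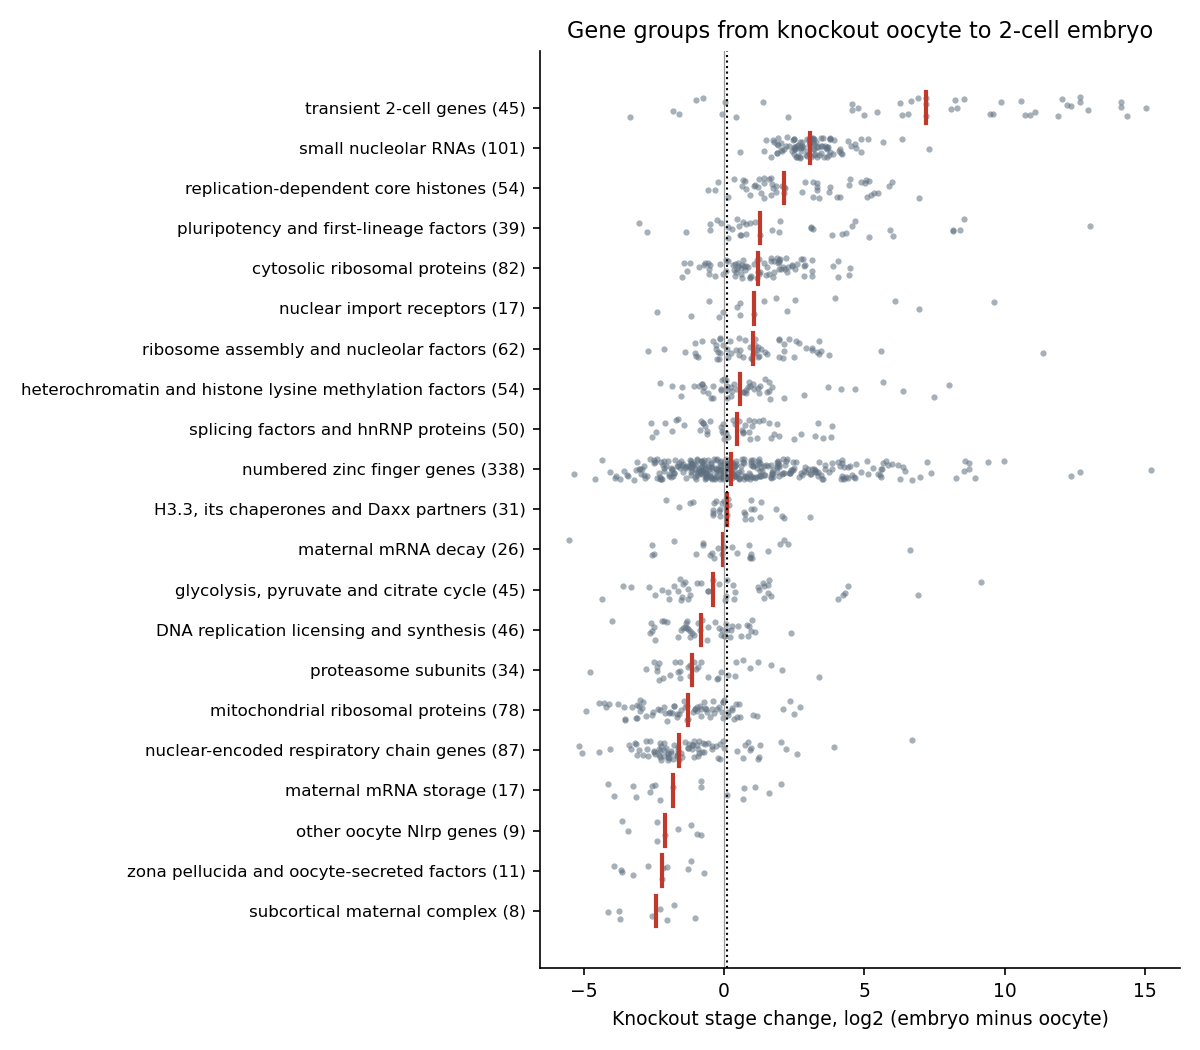
Log2 change from knockout oocyte to 2-cell embryo for each tested member of 21 gene groups (1 point per gene, number of tested members in brackets, small random vertical spread), with the group's median as a red bar. The dotted line is the median of all tested genes, 0.09, and the solid line is 0. The median is 7.21 in the transient 2-cell genes and -2.44 in the subcortical maternal complex.

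Some transcripts held their share. For 1151 genes, 6.94% of those tested, the 95% interval of the log2 change lay between -0.5 and 0.5. Parp12, an ADP-ribosyltransferase gene, was at 1392, 1420.1 and 1444 CPM and 1429 and 1497 CPM (adjusted p = 0.98). C86187, of unknown function, was at 3706, 3729 and 3696 CPM and 3202 and 3936 CPM, so it stayed among the genes with the most reads at both stages, with overlapping groups. Rhpn2 (0.15 ± 0.08) and Trim61 (0.13 ± 0.09) did not pass the test either. Of the genes that held the most reads in oocytes, Spin1, a reader of histone methylation, fell slightly, from 5930.2, 6097 and 6500.4 CPM to 4455 and 5083 CPM (log2 -0.42 ± 0.10), Rdx, which encodes radixin, fell (log2 -2.66 ± 0.08), and Mdm4, a restraint on p53, rose by 0.51 ± 0.12. In embryos Lars2 had the highest mean, with 18088 CPM in replicate 2 and 5521 CPM in replicate 3, the latter below Ccdc6. It rose from 1417, 1763 and 1825 CPM in oocytes (log2 2.76 ± 0.56, edgeR adjusted p = 0.012). The call was lost with a term for the replicate number (edgeR adjusted p = 0.21). Ccdc6 rose from 2268, 2163 and 2267 CPM to 6088 and 6466 CPM and Kmt2c, a writer of H3K4 methylation, from 673, 528 and 798 CPM to 1828 and 2363 CPM.

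Whether the step differs without maternal Daxx was asked by setting it beside the control step, with which it shares no library. In the controls 15577 genes were tested and 12939 called (83.1%), of which 6708 were higher in embryos (43.1%) and 6231 lower (40.0%). Over the 15513 genes tested in both, 6259 were called higher in both, 96.0% of the knockout calls and 94.0% of the control calls, and 5815 were called lower in both, 94.8% and 93.4%. Daxx, the deleted gene, was the 1 gene called in opposite directions. Across genes, which are not independent replicates, the log2 changes had a Pearson correlation of 0.980 and a Spearman correlation of 0.985, and 93.5% of genes differed by 1 or less.

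**Figure D4:**
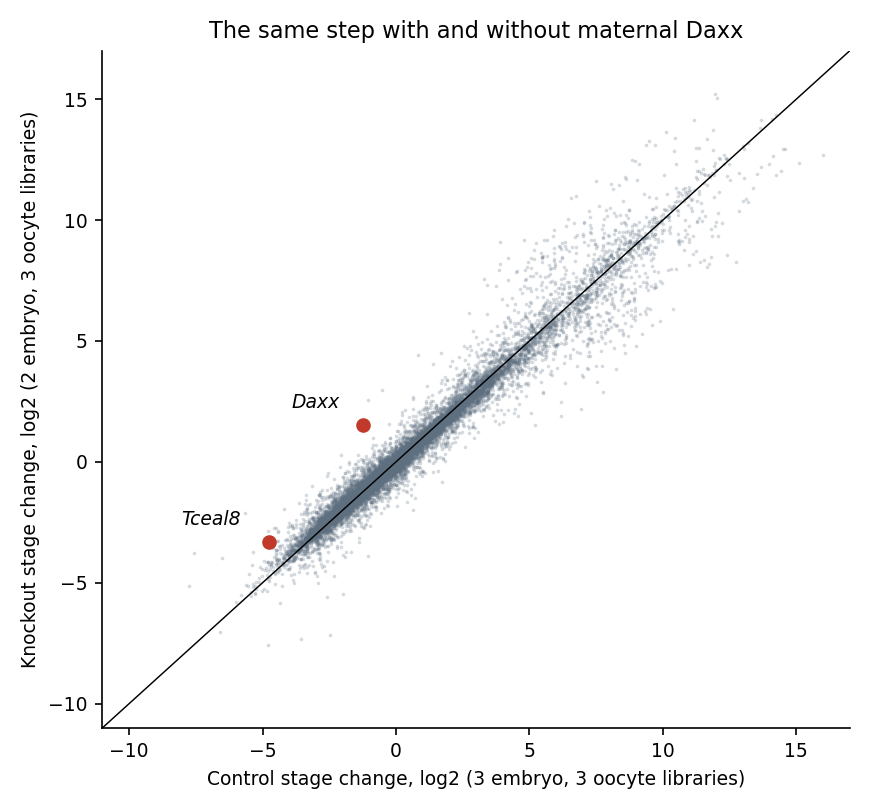
Log2 change of each of 15513 genes from oocyte to embryo in controls (x axis) and without maternal Daxx (y axis), with the line of equal change. Genes lie along the line; Daxx and Tceal8, in red, are the 2 genes whose difference passed the test, both above it.

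The difference itself, tested on all 11 libraries in 1 fit, passed for 2 of 17018 genes (0.0118%; edgeR, adjusted p under 0.05). At an unadjusted p under 0.05 there were 430 genes with a more positive and 490 with a more negative change in the knockout, 5.41% of those tested. On simulated counts of 17018 genes this test found 13.4% of 1.5-fold, 35.8% of 2-fold and 65.2% of 4-fold differences, so a share of true differences of these sizes would be missed. DESeq2 called 4 and 3 genes and limma-voom 1 and 1, more positive and more negative in turn.

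Daxx was the first of the 2. It is the gene deleted in the knockout oocytes, and the embryos carried an intact paternal allele, so a difference here was built into the design. In control eggs it was a stored message that fell, from 97.2, 94.2 and 86.2 CPM to 37.3, 35.2 and 46.7 CPM. In the knockout it rose, from 8.20, 8.40 and 7.83 CPM in oocytes to 22.8 and 25.5 CPM in embryos (log2 1.52 ± 0.13, adjusted p = 3.7e-06), so that the maternal knockout embryos stood between the knockout oocytes and the control embryos and overlapped neither. The difference of the changes was 2.76 ± 0.16 on the log2 scale (adjusted p = 3.4e-07). The gene count does not tell the paternal JF1 allele from the maternal one.

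Tceal8, an X-linked gene of the transcription elongation factor A-like family, was the second. Its oocyte levels were alike, at 100.0, 110.3 and 85.1 CPM in controls and 104, 105 and 85.1 CPM in the knockout. It fell to 4.12, 3.61 and 3.39 CPM in control embryos and to 11.2 and 9.17 CPM in maternal knockout embryos, which lay above every control embryo. The log2 change was -3.31 ± 0.13 in the knockout and -4.76 in the controls, a difference of 1.45 ± 0.19 (adjusted p = 0.014). The call was less firm than that of Daxx: it held in 13 of 19 alternatives, with adjusted p up to 0.82, and was lost without knockout embryo replicate 2, without control embryo replicate 2 or 3, without control oocyte replicate 1 or 2, and with limma-voom.

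**Figure D5:**
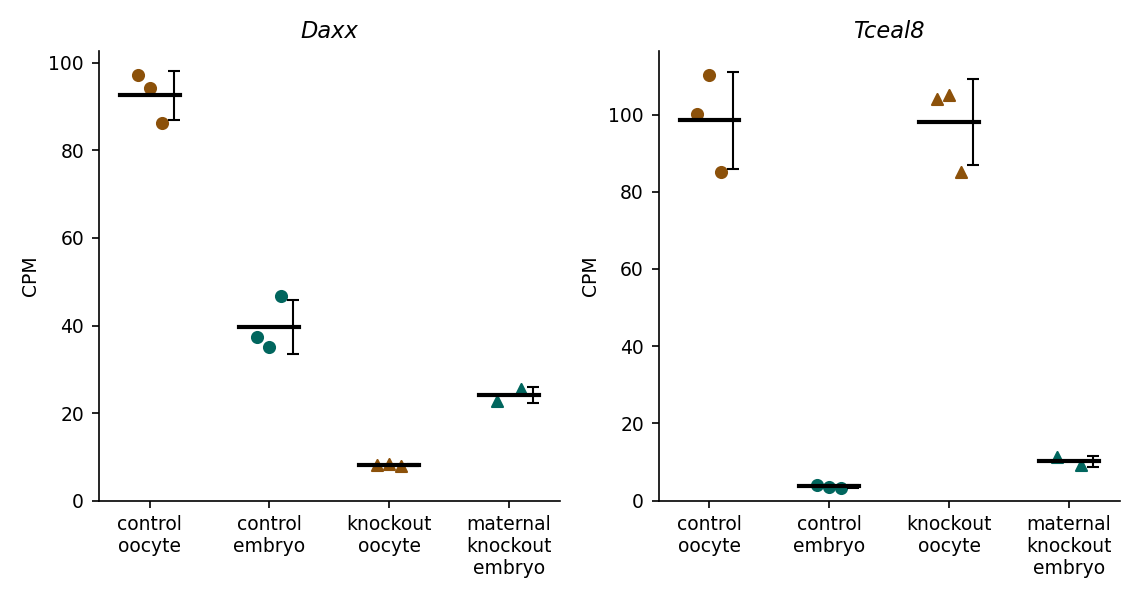
CPM of Daxx (left) and Tceal8 (right) in each library of the 4 groups, controls as circles and knockout as triangles, with the mean (bar) and SD (whisker). Daxx falls from oocyte to embryo in controls and rises without maternal Daxx, up to 22.8 and 25.5 CPM; Tceal8 falls in both and ends higher without maternal Daxx.

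Genes further down the ranking missed the threshold. Acer2, a ceramidase gene, rose in both, by 3.98 in the knockout and 5.70 in controls (difference -1.72, adjusted p = 0.57). Nfkbiz, an inhibitor of NF-kappa-B in the nucleus, changed on the log2 scale by -4.35 and -5.09. Gm10639, Drc1 and Card9 followed, each with an adjusted p of 0.91. DESeq2 called Nfkbiz (adjusted p = 0.027).

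Across the 41 gene groups the median difference (knockout minus control change, log2) ran from -0.46 to 0.21, where the median over all tested genes was -0.01 and 50.9% of them were negative. At the lower end, 8 of 9 Y-linked genes and Xist were negative (median -0.46, from -0.85 without knockout embryo replicate 3 to -0.27 with the replicate block), as were 7 of the 9 defining 2-cell markers (-0.45, from -0.67 without knockout embryo replicate 2 to -0.18 without control oocyte replicate 3). Both are groups of few genes. Ribosomal protein genes rose in the knockout with a median of 1.22 and in controls with 1.5, and 72 of 82 were negative (-0.24, from -0.38 without knockout embryo replicate 3 to -0.15 without control embryo replicate 3). For nucleolar factors the count was 53 of 62 (-0.15, reaching -0.09 without control embryo replicate 3), and for splicing factors 44 of 50 (-0.12, reaching -0.05 without knockout embryo replicate 2). Pluripotency and first-lineage factors had medians of 1.29 in the knockout and 2.03 in controls over the 37 tested in both, while the median of their single differences was -0.09, with 24 of 40 negative. At the upper end, 2 of the 9 defining oocyte markers were negative (0.21, from 0.07 without knockout embryo replicate 3 to 0.31 without replicate 2) and 0 of 8 genes of the subcortical maternal complex (0.19, from 0.05 without knockout embryo replicate 3 to 0.32 without control embryo replicate 2). The oocyte markers and the complex have Ooep and Nlrp5 in common. The transient 2-cell genes had 24 of 46 negative and a median of -0.04, which turned to 0.05 without knockout oocyte replicate 2. In the group of H3.3 and Daxx partner genes the count was 21 of 31, with a median of -0.05. No gene of these groups passed the test of the difference, the genes of a group share libraries, and the groups were not tested as such.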

How the data were processed

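Per the labels' protocols, pools were lysed directly and sequenced through NuGEN's SoLo RNA-Seq kit. The submitters' processing notes name STAR 2.5.0a, SAMtools and GRCm38 (mm10). The authors deposited 1 table of raw read counts for 24421 genes; for the counter and its use of strand, nothing is given in the sources used here. RefSeq symbols matched 24387 genes, and the unmatched rows held under 0.1% of reads. Totals of 20708472 to 38181975 reads set the counting precision; intervals and floors (3 counts) cover counting error only.

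CPM were computed from library totals. Genes were kept by filterByExpr (count minimum 10, total 15) and tested with the edgeR 4.0.16 quasi-likelihood test (R 4.3.3, TMM, Benjamini-Hochberg adjusted p under 0.05). The knockout step used its 5 libraries and the difference of steps an interaction term over all 11. DESeq2 1.42.0, limma-voom 3.58.1, other scalings and filters, a replicate block and leaving out each library were alternatives. The fits were tested on simulated counts. Replicates were separate pools of animals, per the labels. Knockout embryo replicate 1 was not analysed here. The members and gene lists were chosen with earlier results of these data known. Named genes were the 12 largest rises and falls at 50 CPM or more in the higher group, up to 4 rises and 4 falls per list (minimum 10 CPM), genes with the most reads, 5 held genes and the 6 next genes of the difference; other list members were named after their values were seen, and some genes these rules select are not reported here.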

Additional observations from a re-analysis of the deposited data

Results flagged for a closer look

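Daxx differed between the genotypes in its change from oocyte to embryo, by 2.76 on the log2 scale (edgeR interaction over all 11 libraries, adjusted p = 3.4e-07), with a rise in the knockout and a fall in the controls. Since Daxx is the deleted gene, this difference was built into the design. Tceal8 differed by 1.45 in the same test (adjusted p = 0.014), with a smaller fall in the knockout than in the controls.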

How the results depend on the processing

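Of 295 named genes called in the knockout step, 289 kept their direction and call in each of the 14 alternatives run, 6 lost the call in at least 1 (Lars2, Kpna2, Ipo9, Lin28a, H2bc1 and Odf2) and 0 reversed. The counts of genes higher and lower stayed within 1.5 times of the values reported, and 3 of 41 group medians changed sign. The difference of steps gave 4 genes more positive and 3 more negative in the knockout with DESeq2, 1 and 1 with limma-voom, and 1 to 3 and 0 to 1 when each library was left out. Genes without a call changed sign as follows, and the cause was not tested. C86187 ran from -0.299 without knockout embryo replicate 3 to 0.0551 without replicate 2, and Trim61 from -0.00210 to 0.239 in the same settings. Parp12 was at 0.0847 with DESeq2 and with RLE size factors, 0.0720 with upper-quartile factors, 0.0442 with library totals and 0.0255 with a filter of 1 CPM, and ran from -0.0764 to 0.0467 when a library was left out. Replicate numbers were not treated as pairs in the main fit. Between oocytes and embryos of the same number, the correlations of deviations were -0.00075 and 0.056. With 2 embryo libraries, whose deviations mirror each other, these values cannot exclude a shared batch. With the replicate block 6795 genes were higher and 6052 lower in the knockout step, and 2 and 0 genes passed in the difference.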
